A study of Mus musculus with 6 samples.

Results

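Complement genes were followed in brain nuclei of mice with lysophosphatidic acid (LPA)-induced post-hemorrhagic hydrocephalus. The 8 genes were C4b, C3, C1qa, C1qb, C1qc, C3ar1, C5ar1 and Serping1, taken by symbol from the 32285 genes of the count matrices, and 8 of 8 were found. Single-nucleus RNA-sequencing (snRNA-seq) had been done on 6 samples of whole brain, with olfactory bulbs and cerebellum removed, of C57BL/6 S-56 neonates injected into the right lateral ventricle at P7 and collected at P15. Of these, 3 had received LPA and 3 the vehicle, a solution of bovine serum albumin, and both groups had 5 µl injected. Nuclei had been sorted as NeuN-negative, but 20.7% to 30.4% of the nuclei kept in a library clustered as neurons by marker genes. Each library was plotted by the study as an individual mouse, so p-values measure the spread between mice.

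Complement is a cascade of secreted proteins that tag debris, microbes and synapses for removal. The classical pathway starts when C1q, built from the chains encoded by C1qa, C1qb and C1qc, binds its target, and then runs through C4 and C3. Fragments released from C3 and C5 act on the receptors encoded by C3ar1 and C5ar1, and the inhibitor encoded by Serping1 blocks the C1 proteases. In brain, microglia are known as the main source of C1q, and C4b is a known gene of reactive astrocytes.

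Libraries held 48852970 to 65688644 UMIs (unique molecular identifiers, which count RNA molecules), and 57443 of 63383 barcodes were kept. Levels are given in CPM, counts of UMIs per 1000000 UMIs of the nuclei named in that library. They were compared between cell types within a gene, not between genes, because the protocol counts transcript ends. Nuclei were grouped by clusters built without the 8 genes and named from marker lists, giving 14559 neurons, 13162 nuclei of the oligodendrocyte lineage, 10259 astrocytes, 5426 vascular, 2092 immune and 1763 ependymal nuclei, while 10182 stayed unnamed. By the larger of the Xist and Y-linked counts, 1 LPA library and 2 vehicle libraries were called male and the others female. Libraries called female held 99276 to 131245 Xist UMIs but also 14650 to 18861 Y-linked UMIs. Those called male held 23 to 30 and 27128 to 41232. The source of the Y-linked UMIs in libraries called female was not tested. Of the barcode sequences, 708 (1.15%) occurred in 2 or more libraries. The vehicle library of replicate 2 held 380 immune nuclei against 136 and 130 in the other vehicle libraries, so values of immune nuclei are also given without it where a call changes.

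The type with the highest level differed between genes, and some genes shared it. The mean level of C4b over 6 libraries was highest in an astrocyte cluster led by Myoc, Gfap and Thbs4 (cluster 3), at 289 ± 110 (SD). The types that came next stood in a different order in the 2 groups. In LPA libraries they were astrocyte cluster 1 at 70.7 ± 2.82, multiciliated cells at 65.4 ± 22.9, meningeal cells at 51.8 ± 15.2 and macrophages at 28.2 ± 24.4, and the spreads of the first 3 overlapped. In vehicle libraries they were macrophages at 102 ± 103, meningeal cells at 58.5 ± 10.8, astrocyte cluster 1 at 26.7 ± 9.33 and multiciliated cells at 11.8 ± 7.67. The macrophage mean rests on vehicle replicate 2, at 217 CPM, while the other libraries had 0 to 70.5. The 3 C1q chains were highest in homeostatic microglia and macrophages, whose spreads overlapped for each chain, with activated microglia next. Serping1 was highest in meningeal cells at 85.9 ± 11.3 and next in an unnamed cluster led by Slc47a1 at 44.7 ± 8.11. C3ar1 was highest in activated microglia at 92.2 ± 9.24 (n = 3) and next in macrophages at 45.8 ± 17.9, and C5ar1 in macrophages at 109 ± 22.2. C3 was scarce in every type, with a highest mean of 2.60 ± 2.47 in astrocyte cluster 3.

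**Figure D1:**
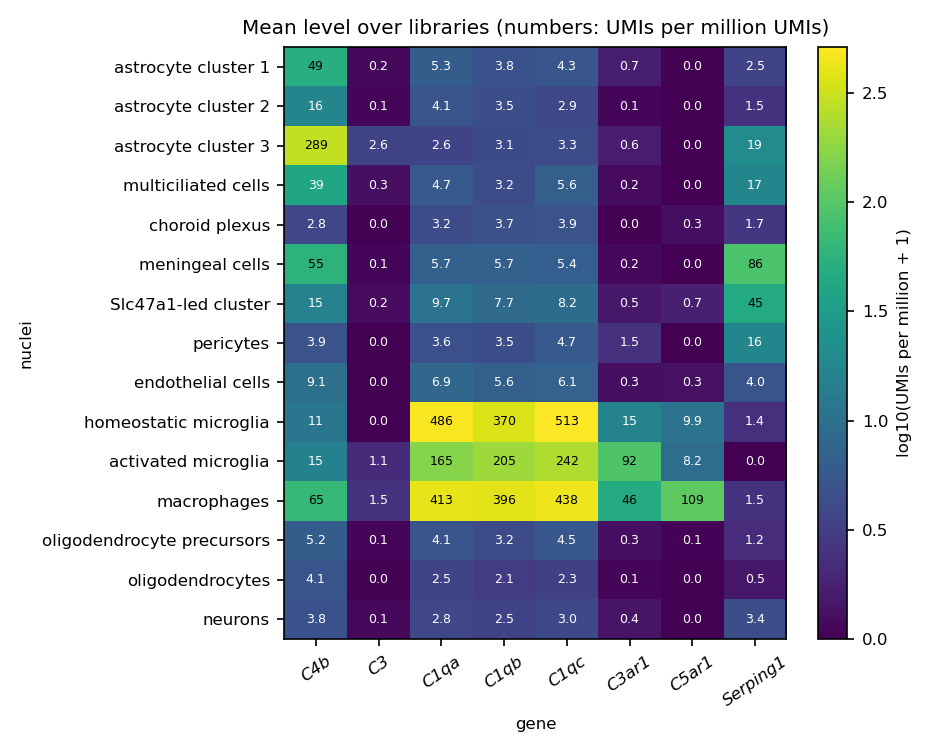
Mean level of each gene (columns) in each type of nuclei (rows), in CPM, averaged over 6 libraries (activated microglia over the 3 LPA libraries). The color is on a log10 scale, and the printed number is the mean. C4b peaks in astrocyte cluster 3 at 289, the C1q chains in homeostatic microglia and macrophages, C5ar1 in macrophages at 109, and Serping1 in meningeal cells at 85.9.

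The genes whose mean log2(level + 1) over 19 types followed each gene most closely were as follows, given as a description, since types share libraries and some contain others. C4b was most like Igfbp5 (Pearson r = 0.864), Gfap (0.847) and Selenbp1 (0.842). C1qa was most like C1qb (0.996), C1qc (0.996) and Ighm (0.994), and both C1qb and C1qc had the other 2 chains and Fcgr1 as their nearest genes. C3ar1 was most like Fcgr2b (0.988), Lilrb4a (0.986) and 5033421B08Rik (0.982), and C5ar1 like Ms4a6b (0.965), Mrc1 (0.955) and Snx2 (0.952). Serping1 was most like Ssc5d (0.929), Col5a2 (0.923) and Abca8a (0.922), and C3 like Cd44 (0.826), Gfap (0.802) and Hgf (0.775).

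Summed over all nuclei, C4b and C3ar1 rose after LPA injection and the other 5 genes tested did not pass. A gene was called at an edgeR adjusted p under 0.05 with a log2 fold change of 0.25 or more in size, and 5.62% of all genes tested over all nuclei were called in either direction, with 3.41% called higher. C4b stood at 30.8, 33.6 and 31.1 CPM in the LPA libraries and at 11.3, 11.8 and 10.2 in the vehicle libraries. These groups did not overlap, and the difference was 2.88-fold (log2 fold change 1.53 ± 0.07 SE, edgeR adjusted p = 3.6e-05). C3ar1 stood at 1.82, 2.03 and 1.84 against 0.382, 0.741 and 0.320 (1.95 ± 0.28, edgeR adjusted p = 0.0067). In such sums, fewer cells of a type and less RNA per cell cannot be told apart. The share of C4b UMIs that came from astrocytes was 61.8% ± 1.87 in LPA libraries and 34.9% ± 4.37 in vehicle libraries, while the share from meningeal cells was 3.22% ± 1.58 against 21.1% ± 0.700 (SD, n = 3). Meningeal nuclei made up 2.66% to 3.56% of the nuclei kept after LPA and 6.17% to 7.31% after vehicle.

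C4b (chr17:34728380-34743882, minus strand, GRCm38) encodes the fourth complement component, which is cleaved by the C1 proteases. It rose after LPA injection in astrocytes, ependymal cells, the oligodendrocyte lineage and neurons. In astrocytes, 5 of the 8 genes passed the filter on low counts, 2 were called higher and none lower, beside 7.76% of all genes called in either direction and 4.72% called higher. C4b stood at 125, 126 and 158 CPM in LPA libraries and at 46.5, 30 and 34.9 in vehicle libraries. All 3 LPA libraries were above all 3 vehicle libraries, and the difference was 3.79-fold (log2 fold change 1.92 ± 0.13, edgeR adjusted p = 3.7e-08). With each nucleus thinned to 1000 UMIs, a C4b UMI was found in 11.3% ± 2.22 of LPA astrocytes and in 3.57% ± 0.344 of vehicle astrocytes (24.8% ± 2.55 and 7.88% ± 1.65 without thinning, SD). The exact permutation test gave p = 0.1 (two-sided), which is the smallest p that 3 against 3 libraries allow. Thinning left out 180 to 373 nuclei a library over all types.

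The rise of C4b was called within astrocyte clusters 3 and 1 but not within cluster 2, and the mix of clusters differed as well. In cluster 3, the levels were 354, 364 and 436 against 218, 155 and 209, a 2.16-fold difference (1.11 ± 0.13, edgeR adjusted p = 7.4e-06) beside 8.53% of all genes called there, 5.58% higher. In cluster 1, led by Grin2c and Slc1a2, they were 68.1, 70.2 and 73.7 against 37.1, 19.1 and 23.9 (1.51 ± 0.15, edgeR adjusted p = 4.4e-06), beside 2.66% called, 1.42% higher. In cluster 2, led by Slc6a11 and Agt, the levels were 16.6, 18.5 and 27.0 against 15.7, 10.1 and 8.72, which did not overlap but did not pass (0.86 ± 0.27, edgeR adjusted p = 0.23, beside 0.3% of all genes called). Cluster 3 made up 24.9% to 26.8% of astrocyte nuclei after LPA and 11.4% to 13.6% after vehicle, and Gfap, one of its leading genes, also rose within it (852 ± 77.4 against 605 ± 84.4, edgeR adjusted p = 0.0017). With the 3 clusters weighted by their mean share of vehicle astrocyte UMIs, an alternative chosen after seeing the data, C4b averaged 84.0 against 37.3, or 2.25-fold (exact permutation p = 0.1, two-sided). The median UMI count per nucleus of cluster 3 was 2997 to 3289 after LPA and 1861 to 2187 after vehicle, and its part in the result was not tested. C4a, a near-identical neighbor of C4b between which counting may split reads, stood at 1.56 to 2.16 CPM in LPA astrocytes and 1.03 to 2.02 in vehicle astrocytes (0.39 ± 0.38, edgeR adjusted p = 0.63).

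In ependymal cells, C4b was the only one of the 8 genes with enough counts for the test, and it was called higher, beside 3.66% of all genes called and 2.82% called higher. Its levels were 34.0, 48.9 and 35.3 in LPA libraries against 6.21, 1.76 and 8.98 in vehicle libraries (2.69 ± 0.34, edgeR adjusted p = 2.0e-05). In the multiciliated cells among them, which line the ventricles, the levels were 48.6, 91.5 and 56.1 against 12.3, 3.97 and 19.3, a 5.06-fold difference (2.34 ± 0.37, edgeR adjusted p = 9.6e-05) beside 4.68% called, 2.59% higher. The vehicle values rest on 1 to 7 UMIs a library. A sub-cluster of 61 nuclei, grouped there by its summed marker score, had Thbs4, C4b and Gfap among its 10 leading genes and none of the fixed multiciliated markers, and Gfap and Thbs4 also led astrocyte cluster 3. Its score for astrocyte markers was 0.79 of that for ependymal markers. It held 16, 22 and 18 nuclei of the LPA libraries and 1, 2 and 2 of the vehicle libraries. Without it, an alternative chosen after seeing the data, the log2 fold change was 2.23 ± 0.43 in multiciliated cells (edgeR adjusted p = 0.0015) and 2.55 ± 0.39 in ependymal cells (edgeR adjusted p = 2.8e-04). In multiciliated cells Gfap rose as well (61.6 ± 19.8 against 18.9 ± 1.20, edgeR adjusted p = 0.0012), and the summed level of the 14 astrocyte markers, all detected, was 2130 to 2532 after LPA and 1878 to 2112 after vehicle. Their part in the result was not tested. In choroid plexus nuclei, C4b had 0 to 4 UMIs a library and was not tested.

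**Figure D2:**
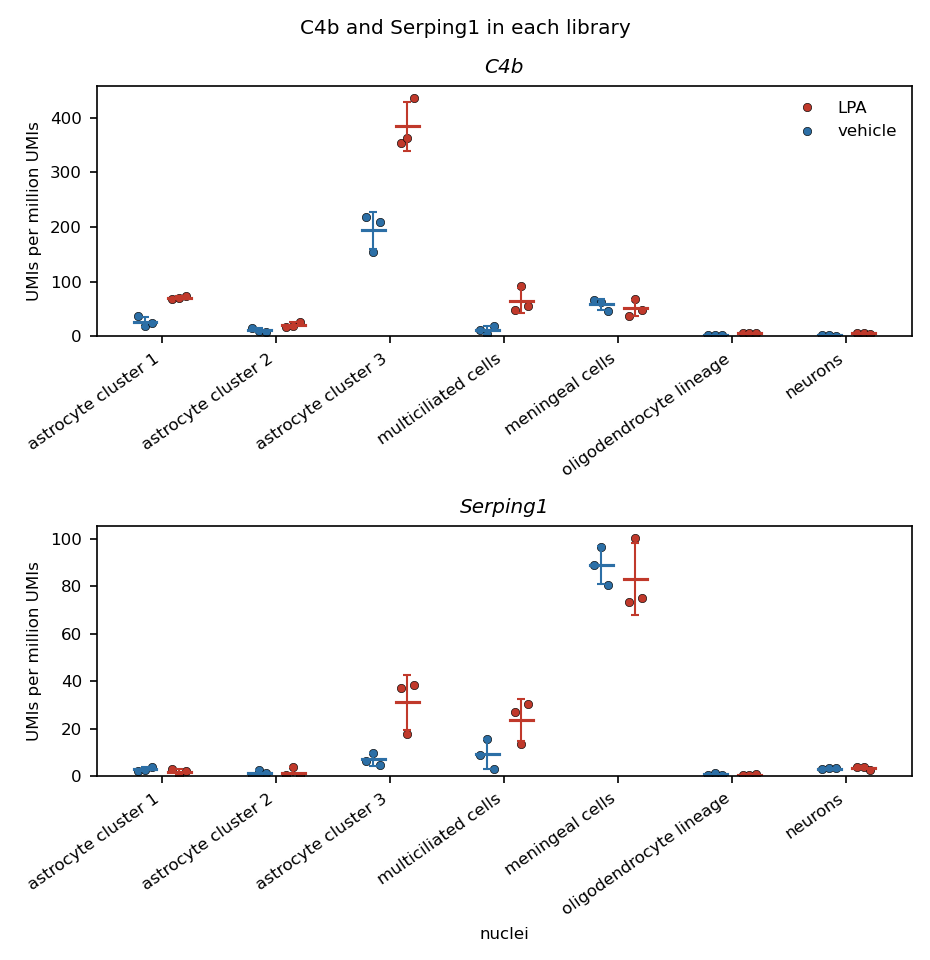
Level of C4b (top) and Serping1 (bottom) in each library, in CPM, by type of nuclei. Points are libraries (LPA red, vehicle blue), and lines with bars are the mean ± SD (n = 3). C4b points of LPA libraries lie above all vehicle points in the 3 astrocyte clusters, in multiciliated cells, in the oligodendrocyte lineage and in neurons, and the groups overlap in meningeal cells.

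C4b was low in the oligodendrocyte lineage and in neurons, and it was higher in every LPA library there. In the oligodendrocyte lineage the levels were 6.51, 6.07 and 6.12 against 2.58, 2.54 and 2.85 (1.21 ± 0.18, edgeR adjusted p = 3.6e-04), and C4b was the 1 gene called of 4 tested, beside 11.8% of all genes, 7.54% higher. In the same nuclei Gfap, an intermediate filament gene of astrocytes, rose from 5.26 ± 0.386 to 11.6 ± 1.21 (1.13 ± 0.14, edgeR adjusted p = 7.8e-05), and the summed level of the 14 astrocyte markers was 1492 to 1740 after LPA and 1243 to 1390 after vehicle, without overlap. Precursors were 829 of 1710, 1214 of 2334 and 909 of 1952 nuclei of the lineage in LPA libraries and 622 of 1908, 932 of 2768 and 740 of 2490 in vehicle libraries. The part of either in the C4b result was not tested. Within precursors and within oligodendrocytes that marker sum overlapped between the groups, at 2881 to 3116 against 2804 to 3122 and at 735 to 945 against 680 to 813. Gfap, however, was called higher within both. It rose by 1.20 ± 0.23 in precursors (edgeR adjusted p = 0.014) and by 0.99 ± 0.17 in oligodendrocytes (edgeR adjusted p = 0.019), and its part there was not tested. In neurons the C4b levels were 6.03, 6.19 and 5.28 against 1.95, 1.78 and 1.61 (1.73 ± 0.18, edgeR adjusted p = 0.0056), and C4b was the 1 gene called of 5 tested, beside 0.0649% of all genes, 0.0295% higher. The call in neurons was lost without LPA replicate 2 (1.69 ± 0.20, edgeR adjusted p = 0.055) and without vehicle replicate 2 (1.73 ± 0.22, edgeR adjusted p = 0.058). The C4b level of neurons was 4.37% of that of astrocytes in LPA libraries and 4.92% in vehicle libraries. For Gfap these shares were 4.63% and 5.26%, and for the 14 astrocyte markers they ran from 3.46% to 12.1% in LPA libraries. The summed level of those markers in neurons was 1505 to 1658 after LPA and 1397 to 1728 after vehicle, and Gfap rose in neurons too (12.5 ± 0.622 against 5.58 ± 0.428, edgeR adjusted p = 0.0056). The part of RNA from astrocytes in these levels was not tested. Among oligodendrocytes, where 1 of 4 genes tested was called beside 0.4% of all genes (0.131% higher), the C4b levels were 6.57, 5.58 and 4.73 against 2.41, 2.11 and 2.91, and an adjusted p of 0.045 by edgeR became larger than 0.05 in 8 of the alternatives tried, 5 of them without 1 library each (LPA replicate 1, 2 or 3 and vehicle replicate 2 or 3). DESeq2 gave this gene no adjusted p there and so made no call. In oligodendrocyte precursors the levels were 6.41, 6.79 and 8.68 against 3.15, 3.81 and 2.62, which did not overlap and did not pass (1.17 ± 0.31, edgeR adjusted p = 0.10, and 0.040 with no filter beyond 1 UMI), beside 0.459% of all genes called.

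C4b did not pass in meningeal, vascular or immune nuclei. In meningeal cells it stood at 38.2, 68.1 and 49.0 against 66.2, 63.2 and 46.2, and the groups overlapped (-0.11 ± 0.19, edgeR adjusted p = 0.93, beside 1.02% of all genes called). In vascular nuclei as a whole it stood at 19.4, 38.3 and 22.0 against 45.2, 43.7 and 31.6, with LPA replicate 2 above vehicle replicate 3 (-0.54 ± 0.22, edgeR adjusted p = 0.16), and without LPA replicate 2 the difference passed (-0.94 ± 0.21, edgeR adjusted p = 0.015), as it did with no filter beyond 1 UMI (edgeR adjusted p = 0.020). In immune nuclei it stood at 19.4, 15.7 and 12.4 against 4.32, 42.1 and 26.9 (-0.92 ± 0.41, edgeR adjusted p = 0.23). Macrophages of vehicle replicate 2 held 24 of the C4b UMIs, in 10 of 63 nuclei with at most 6 in 1 nucleus, against 0 to 4 UMIs in each other library. Without that library the difference was 0.15 ± 0.67 (edgeR adjusted p = 0.96), and without vehicle replicate 1 it was -1.25 ± 0.36 (edgeR adjusted p = 0.038).

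C1qa, C1qb and C1qc lie side by side on chromosome 4 (chr4:136895917-136898803, chr4:136880129-136886187 and chr4:136889804-136893065, minus strand, GRCm38) and encode the A, B and C chains of C1q. The 250 bases before the RefSeq start of C1qb (chr4:136886201-136886450, GRCm38.p6, minus strand) and of C1qc (chr4:136892915-136893164, GRCm38.p6, minus strand), 2 neighboring genes with nearly the same pattern over cell types, are printed 5′ to 3′. Capitals mark AGGAAG or its reverse complement, the core of sites bound by the myeloid factor PU.1. These letters were found on either strand in 29.5% of 32851 mouse promoters of the same length, and in 3 of the 5 genes with a promoter sequence here (C1qb, C1qc and C5ar1).
C1qb: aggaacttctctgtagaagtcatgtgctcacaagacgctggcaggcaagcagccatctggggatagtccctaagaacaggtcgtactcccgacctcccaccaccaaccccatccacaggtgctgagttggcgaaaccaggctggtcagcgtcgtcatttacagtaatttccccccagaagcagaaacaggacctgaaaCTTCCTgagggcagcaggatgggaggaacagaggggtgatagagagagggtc
C1qc: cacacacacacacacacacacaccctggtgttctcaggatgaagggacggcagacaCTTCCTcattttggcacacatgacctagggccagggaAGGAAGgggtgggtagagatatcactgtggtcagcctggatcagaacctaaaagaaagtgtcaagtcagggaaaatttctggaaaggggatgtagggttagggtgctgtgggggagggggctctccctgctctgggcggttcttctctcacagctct

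After LPA injection, the 3 C1q chains fell in immune nuclei, where 6 of the 8 genes were tested, 1 was called higher and 4 lower, beside 5.95% of all genes called, 3.68% higher and 2.27% lower. DESeq2 called 2 of the 6. C1qa stood at 305, 297 and 271 CPM in LPA libraries and at 622, 608 and 398 in vehicle libraries, a 1.90-fold difference (-0.93 ± 0.13, edgeR adjusted p = 1.5e-05). C1qc stood at 365, 364 and 294 against 571, 569 and 521, 1.63-fold lower after LPA (-0.70 ± 0.12, edgeR adjusted p = 1.8e-04). For both, all LPA libraries were below all vehicle libraries, and the calls held in each alternative tried, including without vehicle replicate 2. C1qb stood at 328, 254 and 272 against 363, 488 and 312, with LPA replicate 1 above vehicle replicate 3 (-0.52 ± 0.14, edgeR adjusted p = 0.020). This call was lost with DESeq2 (adjusted p = 0.14), and with edgeR without LPA replicate 2 (adjusted p = 0.20), LPA replicate 3 (0.13) or vehicle replicate 2 (-0.24 ± 0.16, adjusted p = 0.59).

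The mix of immune subtypes differed between the groups. Activated microglia, led by Gpnmb and Spp1, numbered 129, 191 and 193 nuclei in LPA libraries and 0, 0 and 1 in vehicle libraries, so no comparison between groups could be made within them. Their C1qa levels were 143, 173 and 180, those of C1qb 221, 173 and 221, and those of C1qc 268, 226 and 233. In homeostatic microglia of the same LPA libraries, C1qa stood at 419, 388 and 379, C1qb at 385, 290 and 336, and C1qc at 449, 474 and 368. Each chain was thus lower in activated microglia of every LPA library, as a description with no test, since both subtypes come from clustering these nuclei. Over all nuclei, C1qa stood at 15.8, 16.6 and 11.7 against 9.39, 17.9 and 6.09 and did not pass (0.39 ± 0.33, edgeR adjusted p = 0.56), nor did C1qb (0.55 ± 0.37, edgeR adjusted p = 0.46) or C1qc (0.60 ± 0.33, edgeR adjusted p = 0.35). Without vehicle replicate 2, the 3 chains passed over all nuclei, at 0.95 ± 0.20, 1.22 ± 0.20 and 1.17 ± 0.18 (edgeR adjusted p = 0.032, 0.011 and 0.010). Immune nuclei were 5.15% to 5.98% of the nuclei kept after LPA and 1.11% to 3.26% after vehicle.

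Within homeostatic microglia, 1 of 3 genes tested was called lower, beside 0.785% of all genes called, 0.433% lower. C1qa stood at 419, 388 and 379 against 665, 635 and 430 (-0.60 ± 0.14, edgeR adjusted p = 0.0083), and the groups did not overlap. The adjusted p by edgeR rose to 0.081 without LPA replicate 2 (-0.57 ± 0.17), 0.17 without LPA replicate 3 (-0.56 ± 0.16) and 0.22 without vehicle replicate 2 (-0.51 ± 0.16), to 0.22 with Scrublet doublets left out and to 0.20 at Leiden resolution 2. C1qc stood at 449, 474 and 368 against 653, 589 and 547, without overlap, and did not pass (-0.48 ± 0.13, edgeR adjusted p = 0.068, and 0.046 without a mitochondrial filter). C1qb stood at 385, 290 and 336 against 376, 493 and 337 (-0.35 ± 0.14, edgeR adjusted p = 0.39). With each nucleus thinned to 1000 UMIs, 38.2%, 29.9% and 33% of homeostatic microglia had a C1qa UMI after LPA, against 47.2%, 46.4% and 37.9%. These overlapped (exact permutation p = 0.2, two-sided), and without thinning the shares were 50.8% ± 3.37 and 52.0% ± 10.2. For C1qc they were 32.8% ± 4.16 and 44.0% ± 1.83 thinned (exact permutation p = 0.1, two-sided), and 51.8% ± 3.72 and 53.5% ± 4.72 without thinning. In these nuclei the summed level of the 11 markers of activated microglia was 1203 to 1977 after LPA and 850 to 1046 after vehicle, and that of 8 macrophage markers 292 to 344 against 50.5 to 98.5, with Pf4 and Cd209f at 0. The part of either in the result was not tested.

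In macrophages, with 30 to 40 nuclei a library after LPA and 20 to 63 after vehicle, no member was called by edgeR (2 of 3 at an unadjusted p under 0.05) or by DESeq2, beside 0.158% of all genes called by edgeR. C1qa stood at 235, 370 and 242 against 574, 560 and 494 (-1.0 ± 0.26, edgeR adjusted p = 0.32) and C1qc at 307, 337 and 275 against 426, 533 and 752 (-0.92 ± 0.26, edgeR adjusted p = 0.34). Neither overlapped between the groups. Macrophage C1qb stood at 358, 479 and 194 against 407, 515 and 423, which overlapped (-0.44 ± 0.29, edgeR adjusted p = 0.83).

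The share of immune nuclei with a UMI, at 1000 UMIs a nucleus, was 27.1% ± 1.66 after LPA and 42.8% ± 5.28 after vehicle for C1qa, and 28.5% ± 3.83 and 42.4% ± 1.45 for C1qc (each exact permutation p = 0.1, two-sided). For C1qb the share was 25.2% ± 1.76 and 33.1% ± 4.76 (exact permutation p = 0.1, two-sided), a difference of -7.91 percentage points that was -2.84 without thinning and -1.16 at 2000 UMIs, where the groups overlapped. The shares for C1qa without thinning were 42.0% ± 2.38 and 51.9% ± 11.0, where LPA immune nuclei had median UMI counts of 1818 to 2017 and vehicle ones 1278 to 1492. In neurons, taken as a type with little C1q, the thinned share for C1qa was 0.301% ± 0.122 after LPA and 0.236% ± 0.0419 after vehicle, at median UMI counts of 4717 to 6622. Outside immune nuclei, the mean levels of the C1q chains were between 2.07 and 9.72 CPM in the 12 other types, and the C1q genes tested there did not pass in any class. At Leiden resolution 2, C1qa passed in vascular nuclei (1.05 ± 0.31, edgeR adjusted p = 0.048).

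**Figure D3:**
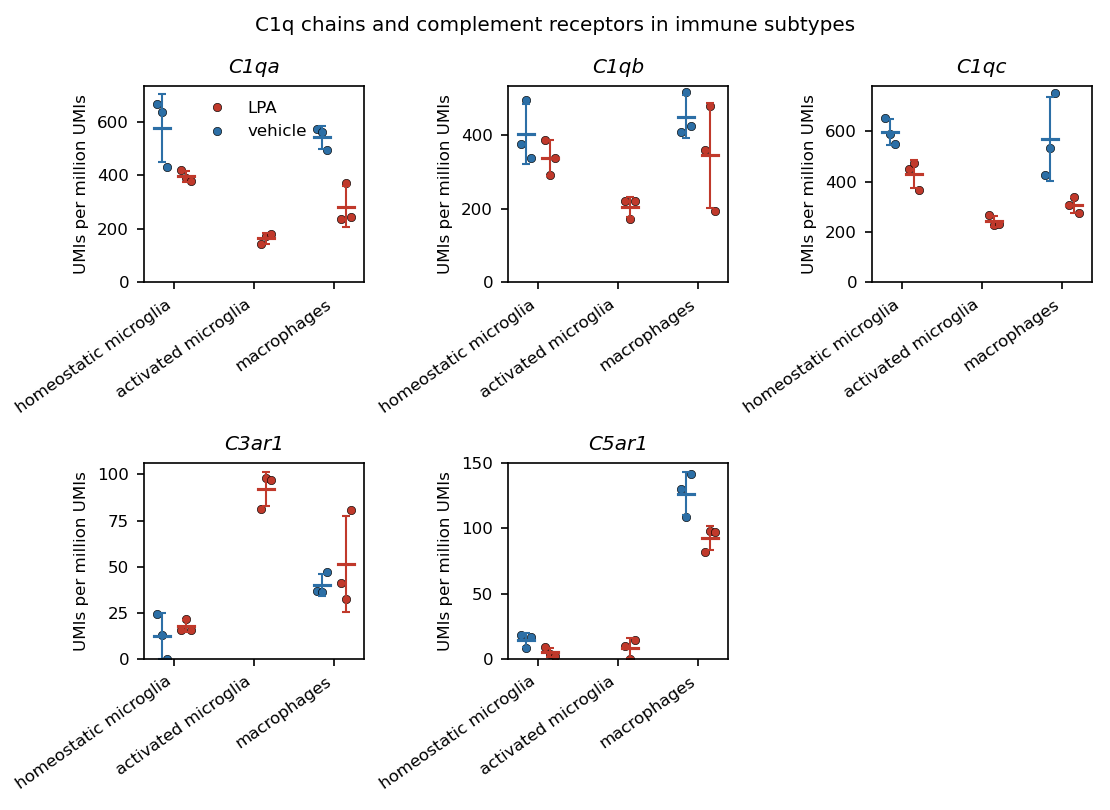
Level of the 3 C1q chains, C3ar1 and C5ar1 in each library, in CPM, for 3 immune subtypes. Points are libraries (LPA red, vehicle blue), and lines with bars are the mean ± SD (n = 3); activated microglia have no vehicle points because vehicle libraries held at most 1 such nucleus. The C1q chains of activated microglia lie below those of homeostatic microglia, and C3ar1 lies above.

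C3ar1 (chr6:122847138-122856161, minus strand, GRCm38), the receptor for the C3a fragment, rose in immune nuclei. Its promoter (250 bases before the RefSeq start, chr6:122856158-122856407, GRCm38.p6, minus strand) is printed because the gene moved against C1q in the same nuclei. Capitals mark TGACTCA, the consensus of AP-1 sites, whose letters or their reverse complement were found in 4.46% of the same promoters and in no other of the 5 genes.
C3ar1: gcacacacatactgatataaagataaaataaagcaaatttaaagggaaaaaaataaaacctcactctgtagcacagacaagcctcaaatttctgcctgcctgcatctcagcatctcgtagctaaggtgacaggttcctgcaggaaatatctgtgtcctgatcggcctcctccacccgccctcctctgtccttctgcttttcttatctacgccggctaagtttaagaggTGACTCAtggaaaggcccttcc

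C3ar1 stood at 39.9, 50.4 and 59.5 CPM in LPA immune nuclei and at 25.9, 18.5 and 10.8 in vehicle immune nuclei, a 2.65-fold difference (1.41 ± 0.33, edgeR adjusted p = 0.0058). These values came from 35, 58 and 53 UMIs and from 6, 11 and 2 UMIs, and the groups did not overlap. At 1000 UMIs a nucleus, the share of immune nuclei with a C3ar1 UMI was 2.00%, 4.90% and 5.32% against 3.79%, 1.38% and 1.64%, which overlapped (exact permutation p = 0.2, two-sided), and without thinning it was 8.41% ± 1.46 against 2.95% ± 1.44. The adjusted p of the level was 0.063 with DESeq2, and 0.12 with edgeR without vehicle replicate 2 (1.40 ± 0.46). In activated microglia the level was 81.5, 97.9 and 97.1, in homeostatic microglia 15.9, 21.5 and 15.9 after LPA against 24.6, 13.1 and 0 after vehicle, and in macrophages 40.9, 32.7 and 80.8 against 37.0, 36.1 and 47.0. The groups overlapped in homeostatic microglia and in macrophages, where the gene had too few UMIs for the test. Activated microglia held 42.9% ± 9.47 (SD, n = 3) of the C3ar1 UMIs of LPA libraries.

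C5ar1 (chr7:16246743-16259540, minus strand, GRCm38), the receptor for the C5a fragment, had its highest level in macrophages and 144 UMIs in all. In immune nuclei it stood at 17.1, 9.57 and 14.6 CPM after LPA and at 43.2, 26.9 and 43.0 after vehicle, with no overlap (-1.33 ± 0.37, edgeR adjusted p = 0.024). Each value rests on 8 to 16 UMIs. The adjusted p rose to 0.087 with DESeq2, and with edgeR to 0.14 without LPA replicate 2 (-1.09 ± 0.39), 0.059 without LPA replicate 3 (-1.39 ± 0.41), 0.10 without vehicle replicate 1 (-1.19 ± 0.41) and 0.085 without vehicle replicate 3 (-1.23 ± 0.41). In macrophages the levels were 81.8, 98.0 and 97.0 against 130, 108 and 141, from 6 to 12 UMIs a library, and they were not tested. The summed level of the 8 macrophage markers in immune nuclei was 1099 to 1604 after LPA and 2516 to 3053 after vehicle, and its part in the result was not tested.

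C3 (chr17:57203970-57228136, minus strand, GRCm38, which overlaps Mir6978) encodes the component on which the complement pathways converge. It had 56 UMIs over all nuclei kept, 14, 7 and 10 in LPA libraries and 7, 11 and 7 in vehicle libraries, too few for the edgeR test in any type. Astrocyte cluster 3 held 6, 4 and 4 of its UMIs after LPA and 2, 0 and 0 after vehicle. No UMI of C3 was found in homeostatic microglia, pericytes, endothelial cells or choroid plexus. Over all astrocytes C3 had 7, 4 and 5 UMIs after LPA and 2, 1 and 1 after vehicle, at levels of 0.566 to 1.13 CPM and 0.164 to 0.577, which overlapped. The share of astrocytes with a C3 UMI was 0.293%, 0.194% and 0.252% against 0.181%, 0.0506% and 0.0549%, without overlap (exact permutation p = 0.1, two-sided, the smallest possible). In neurons it was 0.0559% to 0.141% in vehicle libraries and 0% to 0.134% in LPA libraries. With astrocytes thinned to 1000 UMIs the share was 0.176%, 0.0486% and 0.0637% against 0 of 4862 vehicle nuclei (exact permutation p = 0.1, two-sided). That 0 does not show absence, since vehicle astrocytes held C3 UMIs without thinning. At 2000 UMIs the groups overlapped (exact permutation p = 0.4, two-sided).

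Serping1 (chr2:84765387-84775444, minus strand, GRCm38), the C1 inhibitor, moved in opposite directions in astrocytes and vascular nuclei, and both calls changed with the grouping of nuclei. In astrocytes it stood at 10.8, 5.66 and 11.2 CPM against 2.02, 3.44 and 3.28, a 3.01-fold difference without overlap (1.59 ± 0.30, edgeR adjusted p = 0.0025). In astrocyte cluster 3, 2 of the 8 genes were tested and 2 called higher, beside 8.53% of all genes called, 5.58% higher. There Serping1 stood at 37.0, 17.8 and 38.6 against 6.51, 9.91 and 4.86 (2.09 ± 0.47, edgeR adjusted p = 0.0051), from 57, 30 and 55 UMIs against 2, 6 and 2. Without vehicle replicate 3 the latter was 1.89 ± 0.54 (edgeR adjusted p = 0.055). In cluster 1 it stood at 3.10, 0.582 and 2.29 against 2.41, 2.69 and 4.04, and in cluster 2 at 0.571, 4.10 and 0 against 0, 2.81 and 1.34, too few for the test. With the clusters weighted by the vehicle mix, Serping1 averaged 4.50 in LPA and 2.91 in vehicle astrocytes (exact permutation p = 0.3, two-sided). The log2 fold change over astrocytes was 0.69 ± 0.24 with Scrublet doublets left out (edgeR adjusted p = 0.095) and 0.78 ± 0.25 at Leiden resolution 2 (edgeR adjusted p = 0.059).

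In vascular nuclei Serping1 stood at 34.0, 50.4 and 36.4 CPM against 59.0, 67.5 and 57.3, and was the 1 gene called of 5 tested (-0.59 ± 0.15, edgeR adjusted p = 0.022), beside 7.61% of all genes called, 3.29% lower. Within meningeal cells, where Serping1 is highest, it stood at 73.6, 100 and 74.9 against 89.1, 96.7 and 80.6, the groups overlapped, and the difference was -0.06 ± 0.14 (edgeR adjusted p = 0.95). Meningeal nuclei were 215 of 558, 347 of 794 and 234 of 649 vascular nuclei in LPA libraries and 468 of 781, 796 of 1255 and 858 of 1389 in vehicle libraries. The vascular call was lost without LPA replicate 1 (-0.49 ± 0.16, edgeR adjusted p = 0.10), LPA replicate 3 (-0.51 ± 0.17, edgeR adjusted p = 0.12) or vehicle replicate 2 (-0.51 ± 0.16, edgeR adjusted p = 0.098), and in 3 other groupings or filters of nuclei. In the Slc47a1-led cluster the levels were 57.6, 43.8 and 51.1 against 37.2, 40.2 and 38.0, without overlap, and did not pass (0.40 ± 0.16, edgeR adjusted p = 0.47, beside 0.291% of all genes called). In multiciliated cells they were 27.2, 13.7 and 30.4 against 8.77, 15.9 and 3.22, which overlapped and were not tested.

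**Figure D4:**
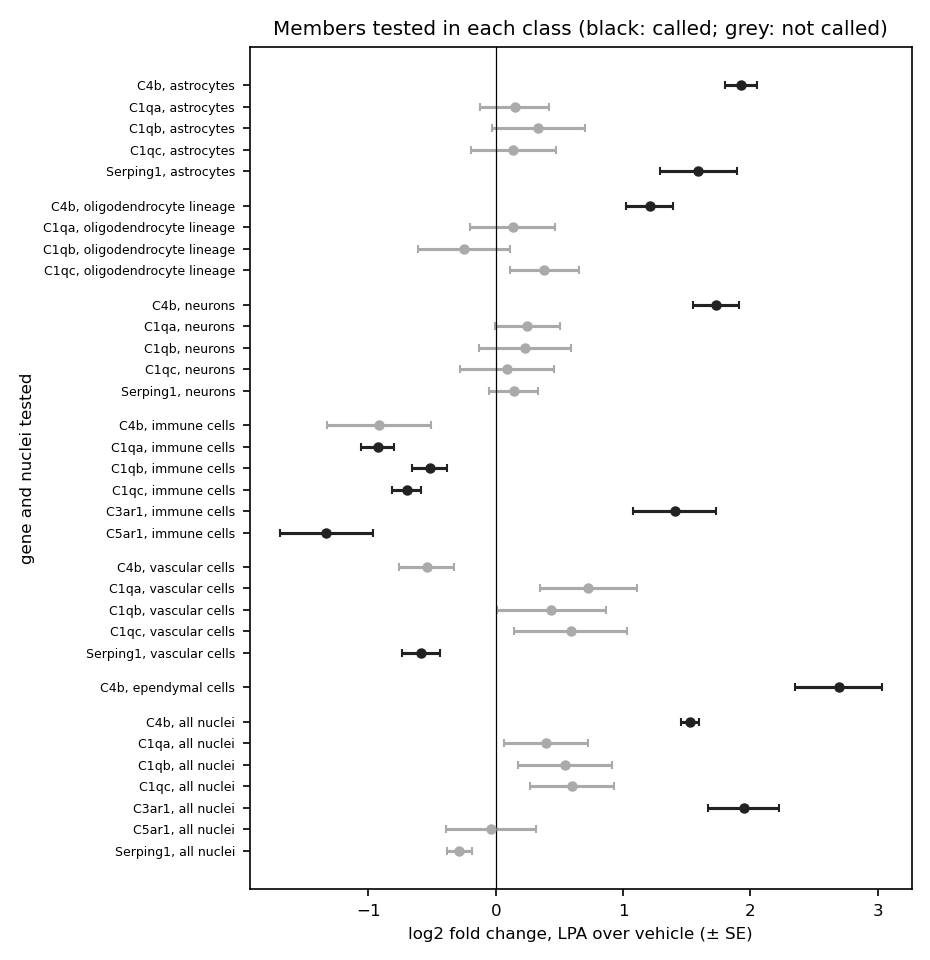
Log2 fold change of LPA over vehicle (x axis, ± SE) for each gene with enough counts for the edgeR test, by class of nuclei and over all nuclei (y axis). Black marks genes called at an adjusted p under 0.05, and grey the others. C4b lies right of 0 in astrocytes, the oligodendrocyte lineage, neurons and ependymal cells, and the C1q chains lie left of 0 in immune cells.

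The effects on C4b in astrocytes and in each other class were compared by an interaction test. It took whole classes, and the mix of subtypes differed between the groups in astrocytes and in vascular nuclei. With astrocyte clusters weighted by the vehicle mix the log2 difference of C4b was 1.17, and within meningeal cells it was -0.11. The part of the mix in the interaction was not tested. The effect in astrocytes was larger than in vascular nuclei by 2.48 ± 0.21 on the log2 scale (edgeR adjusted p = 8.2e-10), beside 6.63% of all genes at an adjusted p under 0.05 in that comparison. It was larger than in the oligodendrocyte lineage by 0.73 ± 0.21 (edgeR adjusted p = 0.029, beside 7.35%), and than in immune nuclei by 2.89 ± 0.40 (edgeR adjusted p = 1.7e-10, beside 3.38%). Without vehicle replicate 2 these 2 differences did not pass, at 0.62 ± 0.25 (edgeR adjusted p = 0.16) and 1.48 ± 0.74 (edgeR adjusted p = 0.43). The one against the oligodendrocyte lineage was also lost without LPA replicate 3 or vehicle replicate 3. Against neurons the difference was 0.23 ± 0.23 (edgeR adjusted p = 0.77, beside 2.36%), and against ependymal cells it was -0.87 ± 0.39 (edgeR adjusted p = 0.30, beside 2.88%), so that neither passed, which does not show that the effects were alike.

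A list of 50 other complement genes was read beside the 8. In astrocytes, 24 were tested, 1 was called higher and 1 lower, beside 7.76% of all genes called, so the list was called about as often as all genes. Csmd1, a membrane inhibitor, rose from 1140 ± 90.5 to 1509 ± 96.8 CPM (0.42 ± 0.07, edgeR adjusted p = 7.6e-04), and Clu (clusterin, an inhibitor of the terminal complex) fell from 417 ± 75.4 to 294 ± 23.1 (-0.48 ± 0.10, edgeR adjusted p = 0.0038). Within the astrocyte clusters the log2 fold change of Csmd1 was 0.09 ± 0.08 in cluster 1, 0.04 ± 0.09 in cluster 2 and 0.68 ± 0.11 in cluster 3, and it was called in cluster 3 (edgeR adjusted p = 2.0e-04). In the oligodendrocyte lineage, 26 were tested, 2 were higher and 1 was lower, beside 11.8% of all genes called, again about as often as all genes. Those higher were Csmd1 (0.64 ± 0.06) and Susd4 (0.58 ± 0.06), and Vtn was lower (-0.65 ± 0.17, edgeR adjusted p = 0.020). The call on Vtn was lost without LPA replicate 3 (-0.49), vehicle replicate 2 (-0.55) or vehicle replicate 3 (-0.67). In precursors, whose share of the lineage was larger after LPA, Csmd1 and Susd4 differed by 0.08 ± 0.06 and -0.01 ± 0.07, and in oligodendrocytes by 0.22 ± 0.08 and 0.08 ± 0.14, and none of these passed (edgeR adjusted p = 0.29 to 0.98). In immune nuclei, 17 were tested, 1 was higher and 4 were lower, beside 5.95% of all genes called, and the median log2 fold change of the 17 was -0.42 beside -0.02 over all genes tested. Itgax, the alpha chain of complement receptor 4, rose from 4.35 ± 1.00 to 48.8 ± 5.76 (3.57 ± 0.45, edgeR adjusted p = 3.0e-06). Among the genes that were lower were Clu (-0.99 ± 0.26), Itgam, the alpha chain of complement receptor 3 (-0.42 ± 0.12), and Csmd3 (-0.55 ± 0.17), whose groups overlapped, with edgeR adjusted p of 0.019, 0.041 and 0.049. These 3 calls were lost with DESeq2 (adjusted p = 0.15, 0.20 and 0.78), and without vehicle replicate 2 the log2 fold changes were -0.63, -0.21 and -0.16, not called. Within homeostatic microglia the 3 genes differed by -0.96 ± 0.31, -0.19 ± 0.13 and -0.30 ± 0.15, and none passed (edgeR adjusted p = 0.17, 0.75 and 0.59). Within macrophages Itgam differed by 1.78 ± 0.47 (edgeR adjusted p = 0.32) and Csmd3 by -0.01 ± 0.34, and neither passed.

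In vascular nuclei, 21 of the 50 were tested, 1 was higher and 2 were lower, beside 7.61% of all genes called and 3.29% lower. Masp1, a protease of the lectin pathway, fell from 10.2 ± 1.34 to 4.88 ± 1.51 CPM (-1.08 ± 0.30, edgeR adjusted p = 0.038, lost without LPA replicate 1 or 2 or vehicle replicate 2 or 3, at -0.92 to -1.15), and Cd93, an endothelial membrane protein, rose from 47.8 ± 20.1 to 77.4 ± 13.2 (0.74 ± 0.21, edgeR adjusted p = 0.038), with overlap between the groups. The call on Cd93 was lost without each library in turn except vehicle replicate 1, with log2 fold changes from 0.57 to 0.83, and without a mitochondrial filter (0.31 ± 0.16). Endothelial nuclei were 175 of 558, 246 of 794 and 222 of 649 vascular nuclei after LPA and 173 of 781, 194 of 1255 and 249 of 1389 after vehicle, and the summed level of 9 endothelial markers was 4615 to 5677 against 2626 to 4006. Within endothelial cells Cd93 differed by -0.04 ± 0.15 (edgeR adjusted p = 0.98), and within meningeal cells, whose share of vascular nuclei was smaller after LPA, Masp1 differed by -0.79 ± 0.36 (edgeR adjusted p = 0.46). In neurons and ependymal cells, of 28 and 16 tested, edgeR called none, with 6 and 5 at an unadjusted p under 0.05, and DESeq2 called none, beside 0.0649% and 3.66% of all genes called by edgeR. Over all nuclei, 40 were tested, beside 5.62% of all genes called, Itgax (4.80 ± 0.29), Hc, which encodes C5 (0.80 ± 0.19), and Itgb2 (0.98 ± 0.23) were higher, and 3 were lower, among them Colec12 (-0.53 ± 0.08) and Vtn (-0.65 ± 0.10).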

How the data were processed

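The authors deposited unnormalized UMI counts per gene and nucleus, made with Cell Ranger 4.0.0 on a pre-mRNA mm10 reference, for 6 libraries of NeuN-negative nuclei. Kept nuclei had 300 genes or more, no more than 1% mitochondrial UMIs, and a UMI total up to Q3 + 1.5 interquartile ranges. Scrublet (expected rate 0.08) called 12.3% to 15.4% of nuclei doublets, which were kept except in an alternative. Nuclei were clustered with scanpy 1.11.5 and leidenalg 0.10.2 (resolution 1), with the 8 genes and all marker genes kept out of the variable genes, and clusters were named from marker lists. The naming limits were revised after clusters had been seen. UMIs were summed per library and type with at least 10 nuclei in every library and tested by edgeR 4.0.16 (quasi-likelihood, TMM, filterByExpr) in R 4.3.3, with Benjamini-Hochberg adjustment over all genes tested in that type. Fold changes come from that fit and SE is the log2 fold change divided by the root of F, while levels carry no TMM factor. The interaction test compared classes with a term for each library. Alternatives were DESeq2 1.42.0, other scaling (RLE, total UMIs), no filter on low counts, no mitochondrial filter, resolution 2, a replicate block, a sex term and leaving out each library. Shares of nuclei with a UMI were compared by the exact permutation test over 20 assignments. Named genes were the 8 members, the called genes of the list of 50, the 3 genes most like each member (among genes with 500 or more UMIs), and markers where a result turned on them, and 1 gene of the list that was called is not reported here. The members and lists were chosen with earlier results of these data known. The weighting of astrocyte clusters and the removal of a multiciliated sub-cluster were chosen after seeing the data. Scripts were tested on simulated data. Replicates differed beyond sampling noise, with a chi-square of 14.6 to 29.7 per degree of freedom. Promoters were taken from RefSeq (GRCm38.p6) and 5 of 8 genes matched; C4b, C1qa and Serping1 did not.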

Additional observations from a re-analysis of the deposited data

Results flagged for a closer look

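For 3 genes the effect of LPA in astrocytes differed from that in another class by the interaction test, on the log2 scale. The test took whole classes, and the part of their mix of subtypes was not tested. Of all genes tested, 7.35% passed against the oligodendrocyte lineage, 6.63% against vascular nuclei, 3.38% against immune nuclei and 2.36% against neurons. For C4b the difference was 2.48 ± 0.21 against vascular nuclei (edgeR adjusted p = 8.2e-10) and passed without each library in turn. It was 0.73 ± 0.21 against the oligodendrocyte lineage (edgeR adjusted p = 0.029), which did not pass without LPA replicate 3 (0.59, edgeR adjusted p = 0.11), vehicle replicate 2 (0.62, edgeR adjusted p = 0.16) or vehicle replicate 3 (0.63, edgeR adjusted p = 0.18). It was 2.89 ± 0.40 against immune nuclei (edgeR adjusted p = 1.7e-10) and 1.48 ± 0.74 without vehicle replicate 2 (edgeR adjusted p = 0.43).

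For Serping1 the difference was 2.19 ± 0.32 against vascular nuclei (edgeR adjusted p = 2.0e-05). The interaction test was not run with Scrublet doublets left out or at Leiden resolution 2, where the Serping1 call was lost in both classes. Its log2 fold changes there were 0.69 and 0.78 in astrocytes and -0.34 and -0.38 in vascular nuclei. It was 2.03 ± 0.49 against the oligodendrocyte lineage (edgeR adjusted p = 0.0083) and 1.67 without vehicle replicate 2 (edgeR adjusted p = 0.14). It was 1.49 ± 0.36 against neurons (edgeR adjusted p = 0.027), which passed only without LPA replicate 2 among the 6 libraries left out in turn, with edgeR adjusted p of 0.067 to 0.11 without the others. For C1qa the difference against immune nuclei was 1.01 ± 0.26 (edgeR adjusted p = 0.0066), which did not pass without LPA replicate 1 (0.85, edgeR adjusted p = 0.12), LPA replicate 2 (0.90, edgeR adjusted p = 0.11) or vehicle replicate 2 (1.00, edgeR adjusted p = 0.076).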

How the results depend on the processing

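Over 71 results and 896 alternatives, 778 kept their direction and side of the threshold (or stayed within the replicate spread), 80 lost a call, 9 gained one, 10 changed sign and 19 moved. The counts of members called were 11 over the classes, 6 over the subtypes and 2 over all nuclei, and 13 other complement genes were called over the classes. Leaving out 1 library at a time gave 7 to 11, 4 to 6, 2 to 5 and 8 to 18. The 7 and the 5 came without vehicle replicate 2 and the 8 without LPA replicate 3. With no filter beyond 1 UMI, 24 other complement genes were called. DESeq2 called 8, 5, 2 and 9, with no adjusted p for some low genes. The causes were not tested.

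Same-numbered libraries correlated at 0.15, 0.38 and -0.03 in their deviations from the group means over 19014 genes, and LPA replicate 1 was closest to vehicle replicate 3 (0.30), so the numbers were not taken as pairs. With the replicate number as a block, 11, 5, 2 and 14 genes were called, and of the named genes C4b in oligodendrocytes (edgeR adjusted p = 0.15), Itgam and Csmd3 in immune cells (0.083 and 0.054) and Masp1 in vascular cells (0.062) lost their calls, and no other did.

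The log2 fold change changed sign for C4b in immune cells without vehicle replicate 2 (0.15), with a range of -1.25 to 0.15 over the libraries left out. For C4b in meningeal cells it changed without Scrublet doublets (0.041) and at Leiden resolution 2 (0.0092), and the range over libraries left out was -0.40 to 0.062. For Serping1 in meningeal cells it changed without Scrublet doublets (0.095), without a mitochondrial filter (0.017) and at resolution 2 (0.081), and the range was -0.25 to 0.018. No value of changed sign was called. Thinning to 2000 UMIs left too few homeostatic microglia in vehicle replicates 1 and 3 for a value. Counts of C3, and of C3ar1 and C5ar1 within subtypes, were too low for the edgeR test.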
